A study of Mus musculus with 8 samples.

Results

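Vascular endothelial growth factors (VEGFs) and their receptors were read out in RNA sequencing of mouse ventricular heart tissue. The family was taken as 9 genes chosen by name, with earlier results of these data known. They are the ligand genes Vegfa, Vegfb, Vegfc and Pgf, the receptor genes Flt1, Kdr and Flt4, and the co-receptor genes Nrp1 and Nrp2. All 9 were found among the 13677 genes of the deposited table, and all 9 passed the filter on low values that left 13544 genes for testing. The study compared ventricles lacking Vhl with wild-type ventricles in a model in which Cre recombinase is driven by Wt1, a gene of the epicardium. Its 8 libraries fall into groups that the labels call C (n = 3), KO (n = 2, numbered 1 and 3) and DKO (n = 3). The labels do not spell out the 3 names, the second change that DKO may carry, the exons removed, how many of the ventricular cells Cre reached, or the strain, sex and age of the mice; they state that no treatment was given and name no batch. It is not said whether each library is from its own animal, and the p-values therefore cover no more than the spread among these libraries, which may be technical.

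Vhl encodes the von Hippel-Lindau protein, which, in the presence of oxygen, targets the alpha subunits of the hypoxia-inducible factors (HIFs) to the proteasome. The level of Vhl mRNA was 8.97, 7.50 and 7.26 in C, 8.33 and 8.96 in KO, and 11.2, 10.9 and 8.61 in DKO. These are values of the deposited signal, a read count divided by an adjusted library size, on the scale of CPM. Neither KO nor DKO had less Vhl mRNA than C (log2 difference 0.12 ± 0.18 (SE), limma adjusted p = 0.71, and 0.33 ± 0.16 (SE), adjusted p = 0.59). A value over the whole gene does not show whether part of it is missing, so it does not check the labels, and a direction given below holds for the libraries as they are labelled.

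VEGF ligands are secreted dimers that bind receptor tyrosine kinases on endothelial cells. In the adult heart, cardiomyocytes and stromal cells make most of the ligand, while receptor transcripts are concentrated in the endothelium. Vegfa drives the growth and permeability of blood vessels through the receptor VEGFR2, encoded by Kdr. Flt1 encodes VEGFR1, which binds Vegfa tightly and signals weakly, and whose soluble form holds ligand back; Vegfb and placental growth factor, encoded by Pgf, bind VEGFR1 and not VEGFR2. Vegfc acts mainly on VEGFR3, encoded by Flt4, in lymphatic endothelium. The neuropilins encoded by Nrp1 and Nrp2 present VEGFs to these receptors and also bind class 3 semaphorins. Vegfa is a textbook target of HIF.

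HIF binds the core letters ACGTG or GCGTG, and the promoters below show where these letters stand in the 2 genes that changed and in Vegfa. All 9 genes matched RefSeq start sites on GRCm38.p6, 11 sites in all. Each sequence is the 250 bases before a start site, read 5′ to 3′ on the strand of the gene, and capitals mark ACGTG or GCGTG on either strand (CACGT and CACGC are the reverse complements). The Pgf window lies on the minus strand at chr12:85177314-85177563, the Nrp1 window on the plus strand at chr8:128358823-128359072, and the Vegfa window on the minus strand at chr17:46032378-46032627.
Pgf: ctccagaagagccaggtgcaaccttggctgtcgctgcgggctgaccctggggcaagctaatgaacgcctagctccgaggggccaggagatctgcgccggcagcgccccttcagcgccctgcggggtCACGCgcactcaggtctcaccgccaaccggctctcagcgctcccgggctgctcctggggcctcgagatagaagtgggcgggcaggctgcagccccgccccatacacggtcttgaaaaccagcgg
Nrp1: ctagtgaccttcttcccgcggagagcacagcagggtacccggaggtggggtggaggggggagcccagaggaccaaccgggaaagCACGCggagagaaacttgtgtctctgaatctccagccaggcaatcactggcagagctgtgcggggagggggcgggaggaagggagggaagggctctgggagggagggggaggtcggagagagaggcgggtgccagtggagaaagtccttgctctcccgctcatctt
Vegfa: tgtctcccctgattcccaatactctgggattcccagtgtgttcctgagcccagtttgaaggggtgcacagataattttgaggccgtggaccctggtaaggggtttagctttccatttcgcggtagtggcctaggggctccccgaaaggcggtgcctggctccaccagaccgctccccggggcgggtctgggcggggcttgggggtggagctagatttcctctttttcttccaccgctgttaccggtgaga
The Pgf window printed, that of its first start site, held 1 such motif, its first base 124 bases before the start, while that of its second start site (chr12:85175983-85176232) held 0. The Nrp1 window held 1, at 166 bases before the start. The window of the first Vegfa start site held 0, while that of a second, internal start site (chr17:46025164-46025413) held 2. Of the 11 windows of the family 7 held the motif, against 38.6% of all 32851 promoters of the same length. These windows covered 7 of the 9 genes, Vegfa only through its internal start site. The genes without a match at any listed start site were Vegfc and Flt4. A match describes letters and is not evidence of binding. A window without a match says nothing of sites outside its 250 bases, for Vegfa as for the other genes.

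Across the family, Pgf was the gene that differed between KO and C, and Pgf and Nrp1 were the genes that differed between DKO and KO. With limma on log2(signal + 1) and Benjamini-Hochberg adjustment over 13544 genes, 1 of 9 members was higher in KO than in C and 0 were lower. Among all genes tested, 13.9% passed in that comparison, 6.9% higher and 7.01% lower. Between DKO and C 0 of 9 members passed, where the background was 0.155% of genes (0.0738% higher and 0.0812% lower). Between DKO and KO 1 of 9 was higher and 1 was lower, against 11.8% of genes (6.08% higher and 5.73% lower). With so few members these counts lie close to the background and say nothing of the family as a whole. The median log2 difference of the 9 members was -0.079 for KO versus C, 0.11 for DKO versus C and 0.14 for DKO versus KO, beside 0.0082, 0.012 and 0.0079 for all genes. The 3 comparisons share libraries and are not independent of each other.

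**Figure D1:**
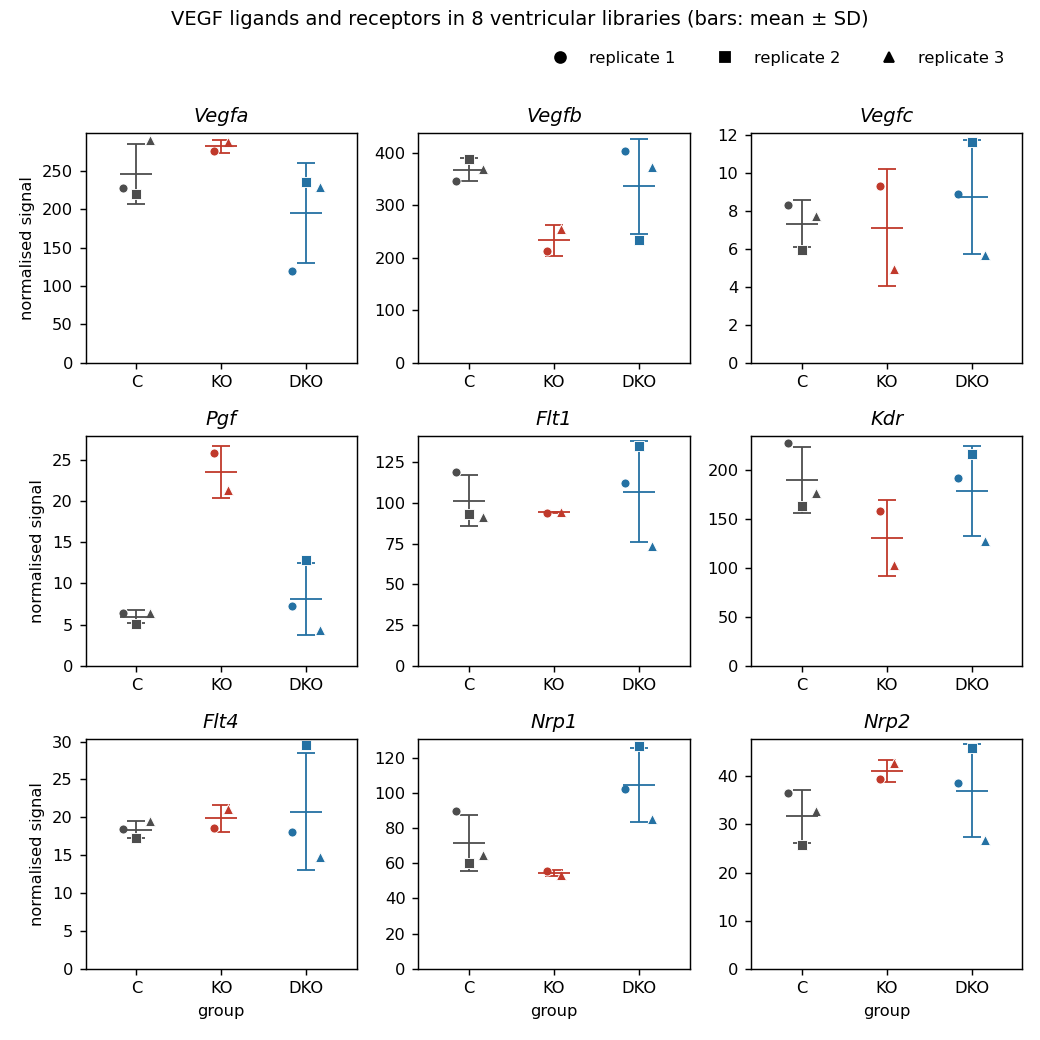
Deposited signal (vertical axes, linear and starting at 0) of the 9 genes in each library of C, KO and DKO, with bars for mean ± SD and marker shapes for the replicate number in the labels. Pgf stands at 25.8 and 21.3 in the KO libraries against at most 12.9 elsewhere, and Nrp1 is lowest in the KO libraries.

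Pgf, encoding placental growth factor (ENSMUSG00000004791, chromosome 12, 85166635 to 85177790 on the minus strand, GRCm38), had signals of 6.40, 5.03 and 6.39 in C, 25.8 and 21.3 in KO, and 7.24, 12.9 and 4.29 in DKO. Both KO libraries lay above every other library, and the C and DKO ranges overlapped. The mean was 5.94 ± 0.787 (SD, n = 3) in C and 23.6 ± 3.16 (SD, n = 2) in KO. On log2(signal + 1) the rise was 1.82 ± 0.31 (SE), or 3.54-fold in signal + 1 (95% interval of the log2 difference 1.14 to 2.51, limma adjusted p = 0.00362). This rise passed under all 20 alternative settings, with log2 differences between 1.38 and 2.34. In DKO the mean was 8.14 ± 4.36 (SD, n = 3), lower than in KO by a log2 difference of -1.53 ± 0.31 (SE) (95% interval -2.21 to -0.85; limma adjusted p = 0.00991). That call ended when either KO library was left out (adjusted p = 0.0878 without replicate 1 and 0.0709 without replicate 3), and the difference was -1.89 without DKO replicate 2 (adjusted p = 0.00138). DKO and C did not differ beyond the spread (0.29 ± 0.28, 95% interval -0.32 to 0.90, adjusted p = 0.78).

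The values of Pgf rested on 83 to 104 reads per library in C, 655 and 615 in KO, and 157, 136 and 74 in DKO. Counting error alone, as a 95% Poisson interval, placed the signal of C replicate 1 between 5.20 and 7.72 and that of KO replicate 3, the lower of the KO pair, between 19.7 and 23.1. Within DKO the intervals of replicate 2 (10.8 to 15.2) and replicate 3 (3.35 to 5.35) did not meet, so the spread inside that group exceeded counting noise. Counts here are reads without molecular identifiers, so these intervals cover counting error only.

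Vegfa, the main angiogenic ligand (ENSMUSG00000023951, chromosome 17, 46016993 to 46032369 on the minus strand), had signals of 227, 220.3 and 291 in C, 276 and 288 in KO, and 119, 236 and 229.6 in DKO. The KO libraries sat inside the range of C, and DKO replicate 1 was the lowest of the 8 by a wide margin. KO and C differed by 0.21 ± 0.27 on the log2 scale (95% interval -0.38 to 0.80, limma adjusted p = 0.66), an interval that holds both a small fall and a rise of less than 1 log2 unit. DKO and KO did not overlap, with a difference of -0.59 ± 0.27 (adjusted p = 0.17). DKO and C differed by -0.39 ± 0.24 (adjusted p = 0.67), which shrank to -0.070 without DKO replicate 1. The signal sums all splice forms of Vegfa, and those that bind matrix cannot be separated here from those that do not.

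Vegfb, a ligand linked to fatty acid handling and coronary vessels in the heart (ENSMUSG00000024962, chromosome 19, 6982473 to 6987651 on the minus strand), had signals of 346, 389 and 368 in C, 212 and 254 in KO, and 402, 233 and 373 in DKO. Both KO libraries lay below all C libraries, and DKO replicate 2 lay among the KO values while the other DKO libraries lay among or above those of C. The difference between KO and C was -0.66 ± 0.23 (95% interval -1.17 to -0.15) and missed the threshold (limma adjusted p = 0.0807). It passed with DESeq2 (adjusted p = 0.0304), in a fit of only these groups (adjusted p = 0.00405) and without DKO replicate 2 (adjusted p = 0.00591). With library totals as the only scaling it was -0.12 (adjusted p = 0.79). DKO replicate 2 stood apart from all other libraries in its share of mitochondrial reads, 41.6% against 16.2% to 29.9%. Without it, Vegfb was 0.74 higher in DKO than in KO (adjusted p = 0.00817), where the full data gave 0.49 ± 0.23 (adjusted p = 0.18).

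Vegfc, the ligand of lymphatic vessels (ENSMUSG00000031520, chromosome 8, 54077606 to 54187096 on the plus strand), was low, at 8.30, 5.94 and 7.75 in C, 9.31 and 4.94 in KO, and 8.89, 11.7 and 5.67 in DKO. The 3 ranges overlapped, and the KO pair lay on either side of all C libraries. Differences were -0.079 ± 0.29 for KO versus C, 0.19 ± 0.26 for DKO versus C and 0.27 ± 0.29 for DKO versus KO, with adjusted p of 0.89, 0.85 and 0.58 (limma). The other lymphatic ligand gene, Vegfd, is not counted in the family here. Its signal lay between 0.949 and 2.31 in all 8 libraries, and the log2 differences were 0.25 ± 0.25, 0.27 ± 0.22 and 0.018 ± 0.25 in the same order, none past the threshold.

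Flt1, the gene of VEGFR1 (ENSMUSG00000029648, chromosome 5, 147561604 to 147726011 on the minus strand), had signals of 119, 93.2 and 91.3 in C, 93.9 and 94.5 in KO, and 113, 135 and 73.7 in DKO. The KO libraries nearly coincided and lay within C, while DKO spanned more than the range of both. Log2 differences were -0.093 ± 0.23 for KO versus C (95% interval -0.60 to 0.41), 0.046 ± 0.21 for DKO versus C and 0.14 ± 0.23 for DKO versus KO, none past the threshold (limma adjusted p = 0.83, 0.96 and 0.73). The receptor of placental growth factor thus had no difference in mRNA past the threshold in the libraries where its ligand was high. Gene-level values do not separate the membrane form of Flt1 from the soluble form.

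Kdr, the gene of VEGFR2 (ENSMUSG00000062960, chromosome 5, 75932827 to 75978458 on the minus strand), had signals of 227, 163 and 177 in C, 158 and 103 in KO, and 192, 216 and 127 in DKO. Both KO libraries lay below all C libraries, and KO replicate 3 was the lowest of the 8. The difference of -0.55 ± 0.26 between KO and C (95% interval -1.11 to 0.0073) missed the threshold (limma adjusted p = 0.18) and ranged from -0.86 to -0.25 when 1 library was left out, the smallest without KO replicate 3. DKO and C differed by -0.11 ± 0.23 (adjusted p = 0.92), and DKO and KO by 0.45 ± 0.26 (adjusted p = 0.27).

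Flt4, the gene of VEGFR3 (ENSMUSG00000020357, chromosome 11, 49609263 to 49652739 on the plus strand), had signals of 18.4, 17.3 and 19.5 in C, 18.6 and 21.1 in KO, and 18.1, 29.5 and 14.7 in DKO. C and KO overlapped, and the highest and the lowest value of the 8 were both DKO libraries. The log2 differences were 0.11 ± 0.24, 0.11 ± 0.21 and 0.0047 ± 0.24 for KO versus C, DKO versus C and DKO versus KO (limma adjusted p = 0.81, 0.90 and 0.99).

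Nrp1, the co-receptor that joins VEGFR2 and Vegfa in arterial and capillary endothelium (ENSMUSG00000025810, chromosome 8, 128358604 to 128503363 on the plus strand), had signals of 89.7, 60.0 and 64.6 in C, 55.6 and 53.1 in KO, and 102, 127 and 84.9 in DKO. Every KO library lay below every C library, and every DKO library above every KO library; DKO and C overlapped. Nrp1 was 104.6 ± 21.1 (SD, n = 3) in DKO against 54.3 ± 1.80 (SD, n = 2) in KO. On log2(signal + 1) the rise was 0.91 ± 0.21 (SE), or 1.88-fold in signal + 1 (95% interval of the log2 difference 0.46 to 1.37, limma adjusted p = 0.0171). The call ended when either KO library was left out (adjusted p = 0.0861 without replicate 1 and 0.137 without replicate 3), while without DKO replicate 2 the difference was 0.77 (adjusted p = 0.0234). It also ended with library totals as the only scaling, where the difference was 0.26 (adjusted p = 0.41) beside a median of -0.57 over all genes. KO and C differed by -0.37 ± 0.21 (adjusted p = 0.27). DKO and C differed by 0.55 ± 0.19 (limma adjusted p = 0.52). Nrp1 was the only member below an unadjusted threshold of 0.05 in that comparison, and edgeR, DESeq2 and voom on the recovered reads also called 0 members there.

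Nrp2, the co-receptor of lymphatic and venous endothelium (ENSMUSG00000025969, chromosome 1, 62703285 to 62818695 on the plus strand), had signals of 36.6, 25.6 and 32.7 in C, 39.5 and 42.7 in KO, and 38.5, 45.8 and 26.8 in DKO. The KO libraries lay above all C libraries, and DKO covered nearly the range of both. KO and C differed by 0.38 ± 0.22 (95% interval -0.10 to 0.86, limma adjusted p = 0.28), DKO and C by 0.20 ± 0.20 (adjusted p = 0.78), and DKO and KO by -0.18 ± 0.22 (adjusted p = 0.64).

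**Figure D2:**
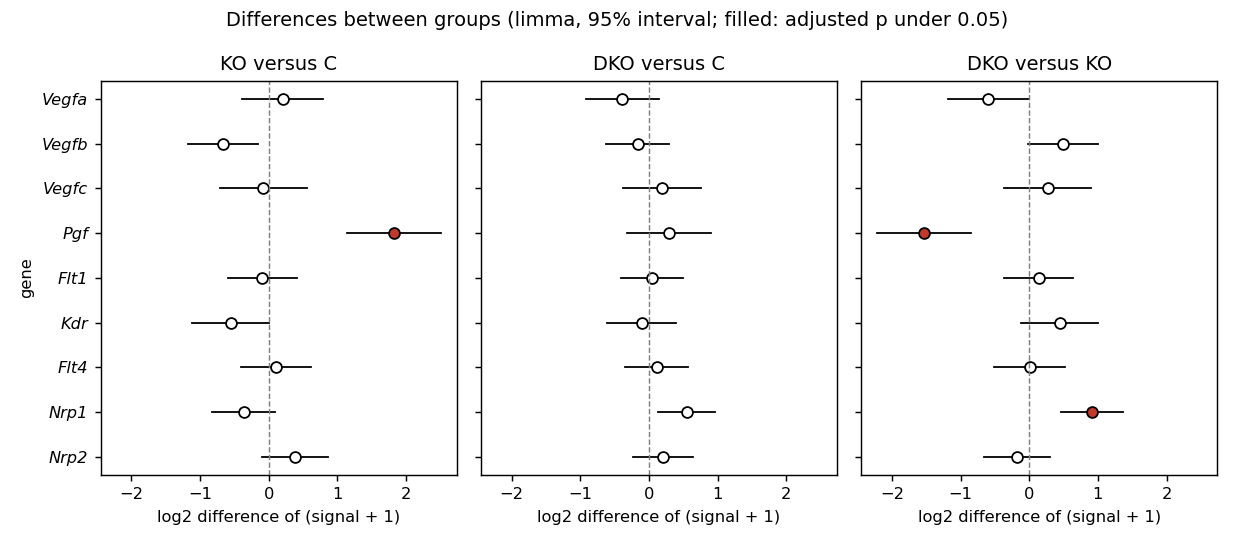
Log2 differences of (signal + 1) from limma with 95% intervals (horizontal axes) for the 9 genes (rows) in the 3 comparisons, filled where the adjusted p is under 0.05. Pgf is filled at 1.82 for KO versus C and at -1.53 for DKO versus KO, Nrp1 at 0.91 for DKO versus KO, and none is filled for DKO versus C.

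Counting libraries rather than testing, 5 of the 9 members had KO and C libraries that did not overlap: Pgf and Nrp2 higher in KO, and Vegfb, Kdr and Nrp1 lower. With 3 libraries against 2 such separation is common, and 54.3% of all genes tested showed it (27.5% higher and 26.7% lower). DKO and KO did not overlap for 3 members (Nrp1 higher, Pgf and Vegfa lower) against 41.5% of genes, and DKO and C for 0 members against 13.8% of genes (6.5% higher and 7.25% lower).

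The choice of scaling moved the comparisons that involve KO. The deposited scaling factors were 1.37 and 1.36 in KO, 0.925 to 0.964 in C and 0.705 to 1.06 in DKO. With library totals as the only scaling, the median log2 difference of all genes became 0.48 for KO versus C, -0.091 for DKO versus C and -0.57 for DKO versus KO. Of the genes called for KO versus C, 95.9% were then higher, against 49.6% with the deposited scaling, and of those for DKO versus KO 3.32% were higher, against 51.5%. Under that scaling 4 members were called higher in KO than in C and the same 4 lower in DKO than in KO: Vegfa, Pgf, Flt4 and Nrp2. Calls over all genes rose too, from 1883 to 4806 for KO versus C and from 1599 to 6205 for DKO versus KO. The count of 4 members therefore says nothing of the family as a whole. Pgf was the member whose difference of 2.34 between KO and C stood well above that shifted median.

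**Figure D3:**
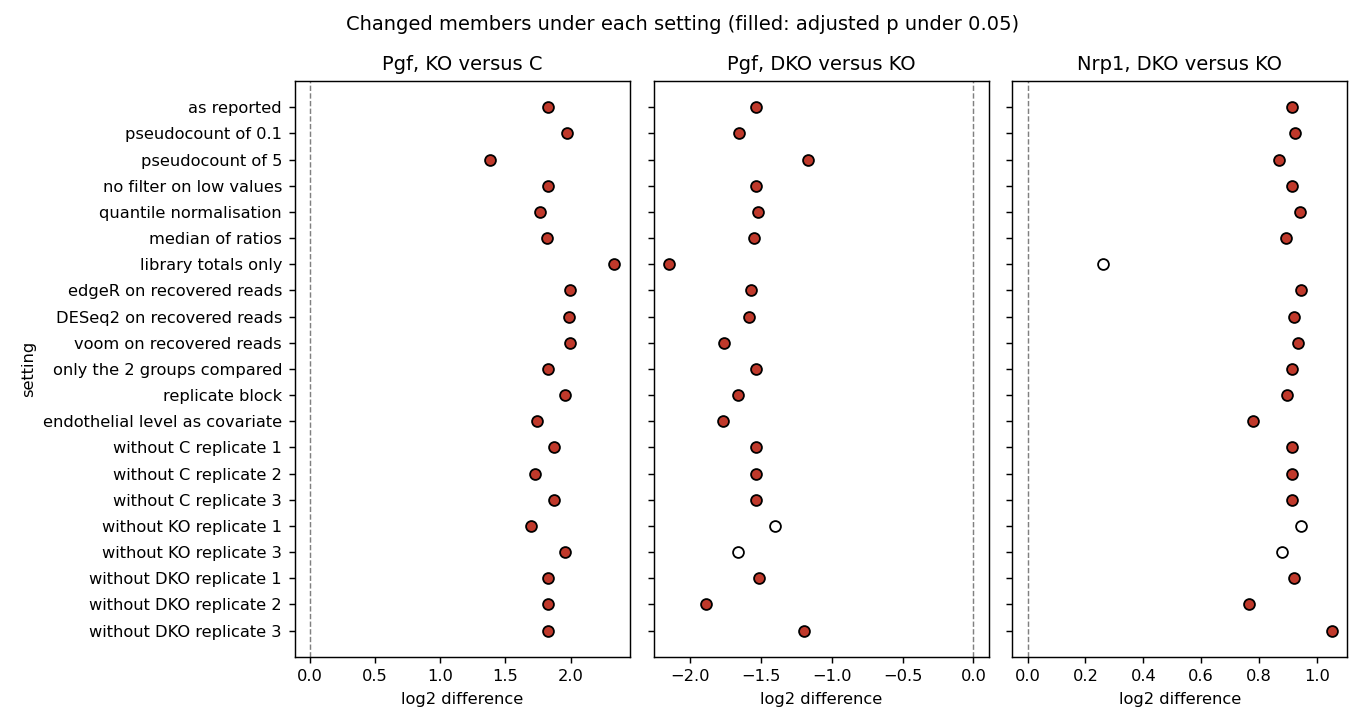
Log2 difference (horizontal axes) of the 3 calls among the family under the reported setting and 20 alternatives (rows), filled where the adjusted p is under 0.05. Pgf in KO versus C is filled in every row, while Pgf in DKO versus KO is open without KO replicate 1 or 3, and Nrp1 in DKO versus KO is open in those rows and with library totals only.

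Levels of different genes were compared per kilobase of the longest annotated transcript, in the C libraries. Vegfb was the most abundant member at 287 ± 16.6 signal per kb (SD, n = 3), followed by Vegfa at 71.3 ± 11.2 and Kdr at 31.9 ± 5.71. Nrp1 (19.6 ± 4.38) and Flt1 (14.7 ± 2.27) came next with overlapping ranges, and then Nrp2 at 4.71 ± 0.825. Vegfc (2.99 ± 0.505), Flt4 (2.94 ± 0.178) and Pgf (2.86 ± 0.379) were lowest and their ranges overlapped. In KO, Pgf reached 11.3 ± 1.52 signal per kb (SD, n = 2), above Nrp2 (6.11 ± 0.332) and below Flt1 (13.7 ± 0.0592). With the union of all exons as the length, Vegfb, Vegfa and Kdr stayed the first 3 and Pgf the last in C, while Flt1 came before Nrp1 and Vegfc before Nrp2.

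As a share of the 4 ligands per length, Pgf made up 0.898%, 0.650% and 0.813% in C, 4.75% and 3.49% in KO, and 0.978%, 2.37% and 0.571% in DKO. Even in KO it stayed a small part of the mRNA signal of these 4 ligand genes. Ligand protein was not measured. Vegfb made up 78.8% ± 2.74 in C, 65.3% ± 2.97 in KO and 79.5% ± 9.33 in DKO, and Vegfa 19.6% ± 2.58, 29.5% ± 1.53 and 18.1% ± 8.20. Among the 3 receptors, Kdr made up 64.3% ± 1.32 in C, 56.0% ± 7.89 in KO and 61.7% ± 1.44 in DKO, and Flt1 29.7% ± 1.08, 35.7% ± 5.84 and 31.6% ± 0.580. These shares are descriptions and were not tested.

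Log2 ratios of 3 pairs of genes within a library, taken on signal + 1, were compared over the groups, giving 9 exact two-sided permutation tests. The log2 ratio of Flt1 to Kdr was -0.92, -0.80 and -0.94 in C, -0.74 and -0.12 in KO, and -0.77, -0.68 and -0.77 in DKO. Every KO and DKO library lay above every C library. The differences from C were 0.46 for KO (exact permutation p = 0.2, adjusted p = 0.6) and 0.15 for DKO (exact permutation p = 0.1, adjusted p = 0.6). These are the smallest p that 3 libraries against 2 and 3 against 3 allow, so no such test can pass 0.05. DKO and KO differed by -0.31 in this ratio (exact permutation p = 0.4). In C, KO and DKO, in that order, the log2 ratio of Vegfa to Kdr averaged 0.38 ± 0.36, 1.14 ± 0.48 and 0.098 ± 0.77 (SD), and that of Vegfc to Flt4 averaged -1.23 ± 0.17, -1.41 ± 0.68 and -1.15 ± 0.18. Their 6 differences had exact permutation p between 0.2 and 0.8.

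Receptor transcripts are concentrated in the endothelium, so receptors and co-receptors were set against 20 endothelial marker genes, all of them found and tested. The labelled tissue held these markers at mean levels from 16.1 (Fli1) to 346 (Eng), and their summed signal was 1490 to 2007 in C, 1722 to 1832 in KO and 1520 to 2790 in DKO. In bulk tissue fewer cells of a type and less RNA per cell cannot be told apart. How much of the signal of Nrp1 and Nrp2 comes from cells other than endothelium was not tested. Of the 20 markers 0 rose and 1 fell in KO versus C, Cldn5, a tight junction gene of endothelium (83.9 ± 25.9 to 39.5 ± 8.47, log2 difference -1.04 ± 0.30, limma adjusted p = 0.0407). The Cldn5 call in KO versus C ended when either KO library was left out and without C replicate 1 or 3 (adjusted p = 0.14 and 0.0973). Leaving out a library gave log2 differences between -1.25 and -0.81. That call also ended with quantile normalisation (adjusted p = 0.0622) and with library totals (adjusted p = 0.21). Between DKO and KO 1 marker was higher, again Cldn5 (log2 difference 1.14, limma adjusted p = 0.0317), and 0 were lower, against 6.08% of genes higher and 5.73% lower. The Cldn5 call in DKO versus KO ended in 6 of the 20 alternatives. Between DKO and C 0 markers passed.

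Relative to the mean log2 level of the 20 markers, Kdr was 1.66, 1.59 and 1.63 in C, 1.25 and 0.78 in KO, and 1.41, 1.18 and 1.29 in DKO, so that the C libraries lay together above all others. Nrp1 was 0.33, 0.16 and 0.19 in C, -0.23 and -0.16 in KO, and 0.51, 0.42 and 0.71 in DKO, with no overlap among the 3 groups. Flt1 was 0.74, 0.79 and 0.69 in C, 0.51 and 0.66 in KO, and 0.65, 0.50 and 0.51 in DKO, again with the C libraries above all others. How many of all genes separate on this relative measure was not counted. On the signal itself separation was common: 54.3% of genes for KO versus C, 13.8% for DKO versus C and 41.5% for DKO versus KO. With the endothelial level of each library as a covariate in limma, the differences between KO and C passed for Pgf (1.74, adjusted p = 0.000318), Vegfb (-0.62, adjusted p = 0.0305), Kdr (-0.61, adjusted p = 0.0224) and Nrp1 (-0.41, adjusted p = 0.0490). Under the same covariate DKO and KO differed for Pgf (-1.77, adjusted p = 0.000475), Nrp1 (0.78, adjusted p = 0.00483) and Vegfb (0.61, adjusted p = 0.0425), and 0 members differed between DKO and C. Calls over all genes also rose with this covariate, from 1883 to 2739 for KO versus C and from 1599 to 2150 for DKO versus KO. The gain in calls was thus not confined to these members. That covariate is itself measured in these libraries, and the calls for Kdr and for Nrp1 in KO versus C were made in no other setting.

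**Figure D4:**
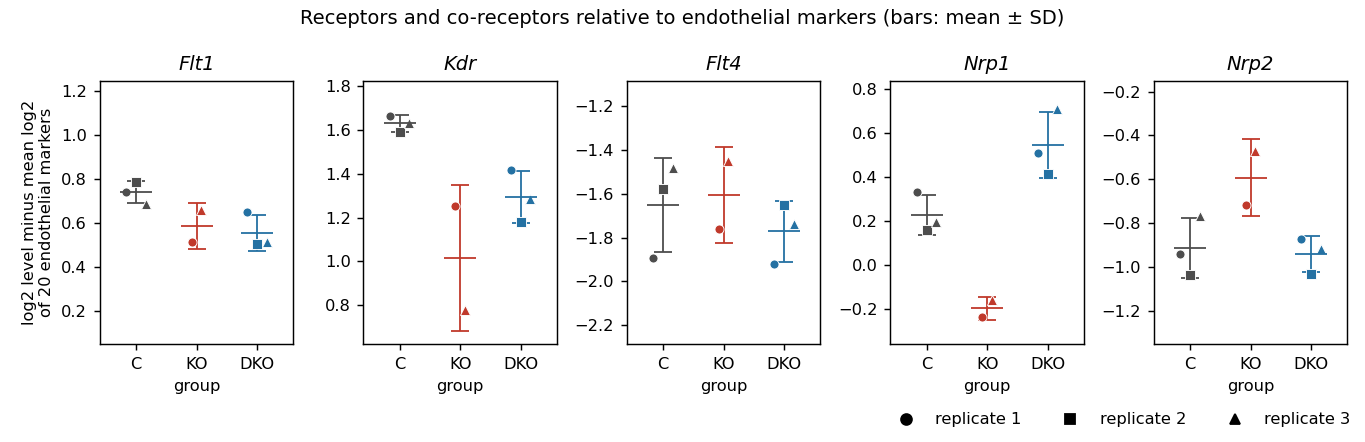
Log2 level of Flt1, Kdr, Flt4, Nrp1 and Nrp2 minus the mean log2 level of 20 endothelial markers (vertical axes, each with its own range), per library of C, KO and DKO, with bars for mean ± SD. Kdr is highest in the 3 C libraries (1.59 to 1.66), and Nrp1 is lowest in the KO libraries (-0.23 and -0.16) and highest in the DKO libraries (0.42 to 0.71).

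Some markers of other cell types also differed between the groups. The summed signal of 10 fibroblast markers was 1133 to 1925 in C, 1752 to 2284 in KO and 1338 to 3442 in DKO, and 4 of them rose in KO, among them the collagen gene Col1a1 (63.5 ± 7.53 to 243.7 ± 20.3). Of 10 epicardial markers 7 were in the table, summing to 9.24 to 15.3 in C, 33.3 and 34.1 in KO and 10.7 to 17.9 in DKO, and 4 rose in KO. That group order, with KO high and DKO near C, was also the order of Pgf, and of many other genes, among them Ccn2, Stat3 and Loxl2 below. Over all genes tested, 6.9% were higher in KO than in C and 7.01% lower. Macrophage markers summed to 328 to 361 in C, 462 to 467 in KO and 370 to 472 in DKO. Of these 10 markers 1 was called higher in KO than in C. Mural cell markers summed to 671 to 794 in C, 868 to 952 in KO and 698 to 1031 in DKO. Again 1 of 10 was called higher in KO than in C. Cardiomyocyte markers summed to 66119.8 to 69817 in C, 42188 to 47765 in KO and 40485 to 66655 in DKO. Of these 10 markers 1 was called lower in KO than in C and 0 higher. Skeletal muscle markers summed to 70.7 to 479 in C, 1.39 to 1.57 in KO and 7.03 to 16.6 in DKO, and all 8 were lower in KO than in C and 7 in DKO than in C. The 6 lymphatic markers summed to 56.9 to 73.0 in C, 43.9 to 69.8 in KO and 54.0 to 60.8 in DKO, with 0 called. The part of these cell types in the differences of Pgf, Nrp1 and the other members was not tested.

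The wider pathway was described by 7 lists of genes, with counts read against the 6.9% of genes higher and 7.01% lower in KO versus C. These counts describe the libraries, and no test was made of any list. The lists were chosen with earlier results of these data known, so a count above that share is not independent of the choice. Among 15 tested genes for ligand processing and matrix partners, 5 rose in KO and 1 fell, with a median log2 difference of 0.57. Ccn2, a matricellular protein that binds Vegfa, was 50.2, 67.1 and 39.0 in C, 193 and 179 in KO, and 52.6, 39.1 and 39.2 in DKO. It rose by 1.85 ± 0.22 in KO (limma adjusted p = 0.000645) and was lower in DKO than in KO by -2.08 ± 0.22 (adjusted p = 0.000303), the KO libraries lying far above all others. Thbs1, the angiogenesis inhibitor thrombospondin-1, rose from 5.29 ± 1.98 to 25.1 ± 11.6 (adjusted p = 0.00904, and 0.105 without KO replicate 1). Svep1, Sparc and Furin, a protease that cleaves pro-Vegfc, also rose in KO, by 1.52, 1.11 and 0.83. Svep1 passed under all 20 alternatives, while the calls of Sparc and Furin ended in 4 each, with adjusted p of 0.082 and 0.26 without KO replicate 3. Angptl4, a secreted lipase inhibitor and regulator of vessel permeability, fell by 1.87 in KO, from 90.9 ± 18.7 to 23.9 ± 2.46 (adjusted p = 0.00629, and 0.0752 without KO replicate 3).

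In the same list 1 gene was higher and 4 were lower in DKO than in KO, against 6.08% and 5.73% of all genes. The higher gene was Ccbe1, which is needed for the activation of Vegfc (0.973 ± 0.903 in KO, 4.11 ± 2.34 in DKO; log2 difference 1.36, limma adjusted p = 0.0355), and its call ended in 9 of the 20 alternatives, with an adjusted p of 0.28 without KO replicate 1. The lower genes were Ccn2, Svep1, Sparc and Furin, and the calls of Sparc and Furin ended in 9 and 8 of the 20 alternatives. Without KO replicate 1 or KO replicate 3 the list had 3 genes called higher in KO than in C in each case.

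Among 13 semaphorins and plexins, the other ligands and partners of neuropilins, 4 rose in KO and 0 fell (median 0.38). Sema3f, a ligand of Nrp2, was 25.3, 24.5 and 30.9 in C, 51.6 and 63.1 in KO, and 28.3, 44.9 and 24.5 in DKO, so KO lay above all other libraries. The rise of 1.06 ± 0.23 passed (limma adjusted p = 0.0112) and lost its call without KO replicate 3 (adjusted p = 0.12). Sema3c, Plxna1 and Sema3b rose by 0.87, 0.71 and 0.58, calls that ended in 4, 4 and 6 alternatives and had adjusted p of 0.11, 0.19 and 0.17 without KO replicate 3. The count of 4 fell to 1 without KO replicate 1 and to 0 without KO replicate 3. Sema3a, a ligand of Nrp1, averaged 0.643 ± 0.219 in C, 0.669 ± 0.529 in KO and 2.38 ± 1.06 in DKO, and its difference of 1.002 ± 0.27 between DKO and C had an adjusted p of 0.44.

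Among 18 membrane partners of the receptors, 4 rose in KO and 0 fell (median 0.30). Itgb3, an integrin subunit whose dimer with alpha-v associates with VEGFR2, was 5.54, 3.405 and 2.38 in C, 10.1 and 14.4 in KO, and 3.93, 3.54 and 3.14 in DKO. It rose by 1.504 ± 0.27 in KO (limma adjusted p = 0.00419) and was lower in DKO than in KO by -1.53 ± 0.27 (adjusted p = 0.00453); both calls ended without KO replicate 3 (adjusted p = 0.0745 and 0.0837). Itgb1, Ptprj and Ptpn1, of which the last pair are phosphatases acting on VEGFR2, rose by 0.77, 0.70 and 0.62, with adjusted p of 0.092, 0.23 and 0.15 without KO replicate 3. The list's count of 4 fell to 1 without KO replicate 1 and to 0 without KO replicate 3. In DKO versus KO 2 of the 18 were higher (Kif13b and Epn2, calls that ended in 8 and 10 of the 20 alternatives) and 2 were lower (Itgb3 and Itgb1).

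Of 51 genes of intracellular VEGF signalling, 4 rose in KO and 2 fell, with a median of 0.13, so most of this list did not pass the test. The kinase genes Prkca and Map2k1, the phospholipase gene Plcg2 and the chaperone gene Hsp90aa1 rose by 0.72, 0.69, 0.69 and 0.58, with adjusted p of 0.17, 0.22, 0.22 and 0.076 without KO replicate 3. Prkd1, a protein kinase D gene, fell by 0.85 (7.36 ± 0.311 to 3.65 ± 0.455, limma adjusted p = 0.00931), a call that ended when either KO library was left out (adjusted p = 0.0885 without replicate 1 and 0.0556 without replicate 3) and with library totals (adjusted p = 0.18). Bad, an apoptosis gene, fell by 0.52, a call that ended in 7 alternatives (adjusted p = 0.31 without KO replicate 3). Without KO replicate 3 the list had 0 calls in either direction, and without DKO replicate 2 it had 8 higher and 5 lower.

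Of 15 tested genes known to respond to VEGF in endothelium, 6 rose in KO and 0 fell, with a median of 0.59. In bulk tissue the cells in which they rose are not known, and whether VEGF acted on them was not tested. Esm1, an endothelial tip cell gene, was 0.949, 0.934 and 2.01 in C, 10.4 and 4.97 in KO, and 0.896, 1.65 and 1.12 in DKO. Rcan1, an inhibitor of calcineurin, was 74.9, 86.8 and 69.7 in C, 352 and 178 in KO, and 60.2, 46.9 and 88.5 in DKO. For both genes the KO libraries lay above all 6 others. Esm1 rose by 1.88 ± 0.31 (limma adjusted p = 0.00282) and Rcan1 by 1.69 ± 0.29 (adjusted p = 0.00380), and both were lower in DKO than in KO (-1.90, adjusted p = 0.00341, and -1.97, adjusted p = 0.00225). These 4 calls passed under every alternative setting. Plvap, Apln, Adamts1 and Nr4a3 also rose in KO, by 1.83, 1.35, 1.12 and 1.09. Of these 4, Apln, the gene of the peptide apelin, passed under all 20 alternatives, and the others had adjusted p of 0.25, 0.22 and 0.13 without KO replicate 3. The count of 6 became 3 without KO replicate 1 and 3 without KO replicate 3.

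In that list Nr4a1, an immediate early gene, was the only gene called between DKO and C: its mean of 17.3 ± 1.99 in DKO stood against 8.23 ± 1.32 in C (log2 difference 0.99 ± 0.17, limma adjusted p = 0.0496), and its call ended in 14 of the 20 alternatives. Egr1, another immediate early gene, was higher in DKO than in KO (15.5 ± 5.72 in KO, 60.03 ± 25.5 in DKO; 1.83, adjusted p = 0.0133, and 0.16 without KO replicate 3). The list had 1 gene higher and 5 lower in DKO than in KO.

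Of 12 regulators of Vegfa transcription, 3 rose in KO and 1 fell (median 0.14). Stat3 was 56.6, 65.6 and 56.3 in C, 124 and 136 in KO, and 57.3, 61.3 and 60.2 in DKO, with both KO libraries above the rest by a wide margin. It rose by 1.12 ± 0.15 (limma adjusted p = 0.00106), was lower in DKO than in KO by -1.12 ± 0.15 (adjusted p = 0.00136), and kept both calls under every alternative. Hif1a, an alpha subunit of HIF, rose from 29.8 ± 2.32 to 59.99 ± 13.8 (0.97, adjusted p = 0.00695, and 0.0856 without KO replicate 1). Egln3, an oxygen-sensing prolyl hydroxylase and itself a HIF target, rose from 40.3 ± 4.52 to 81.8 ± 10.6 (1.003, adjusted p = 0.00571, and 0.0822 without KO replicate 3), while Egln2 fell by 0.62, a call that ended in 6 alternatives (adjusted p = 0.17 without KO replicate 1).

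Of 17 tested HIF target genes other than the VEGFs, 6 rose in KO and 0 fell (median 0.43), and 8 were lower in DKO than in KO with 0 higher (median -0.68). These counts depend on which genes the list holds. Angptl4, placed among the matrix partners above, fell by 1.87 in KO and is not counted here. The 6 were the lysyl oxidase gene Loxl2 (10.6 ± 0.698 to 66.6 ± 4.26), the lactate exporter gene Slc16a3 (3.34 ± 1.05 to 17.97 ± 1.78), the glucose transporter gene Slc2a1 (7.01 ± 1.14 to 23.6 ± 0.114), Adm, Egln3 and Hk2. The first 3 and Adm, which encodes the vasodilator adrenomedullin, passed in KO versus C under every alternative, while Hk2 had an adjusted p of 0.23 without KO replicate 3. Bnip3, a mitophagy gene used as a HIF target, had means of 105.9 ± 11.05 in C and 106.6 ± 2.63 in KO, a log2 difference of 0.014 ± 0.21 (limma adjusted p = 0.97). Vegfa, often read beside these genes, had the difference of 0.21 ± 0.27 given above. The count of 6 was 6 without KO replicate 1 and 4 without KO replicate 3.

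Between DKO and C, 0 genes passed in any of the 7 lists other than Nr4a1, where 21 of 13544 genes passed in all; the medians of the lists lay between -0.17 and 0.38.

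For each member, genes with the most similar pattern over the 8 libraries were read out as a description, by Pearson's r of log2(signal + 1) among 9837 genes with a mean signal of at least 5. These points share groups and library scaling, so no p is given. Closest to Pgf were Phlda3 (r = 0.99), the fibrillar collagen gene Col5a2 (r = 0.99) and Rrp8 (r = 0.99). Col5a2 was 27.3, 21.8 and 23.2 in C, 64.7 and 54.7 in KO, and 29.8, 37.5 and 21.5 in DKO, so DKO replicate 2 was the highest of its group as it was for Pgf. Closest to Kdr were Cyyr1, Ahr and Prex2 (r = 0.99, 0.98 and 0.97), and closest to Flt1 were Ehd2, Galnt18 and Kctd12 (r = 0.98, 0.97 and 0.96). Vegfb followed Selenbp1, Kyat3 and Ptcd2 (r between 0.989 and 0.997), all of which were lower in KO and in DKO replicate 2 than in the other libraries. Nrp1 was nearest to Cryzl2, Zfp580 and Cyp2j6 (r between 0.968 and 0.971), Nrp2 to Esyt1, Abi2 and Pcdh1, Flt4 to Prkd2, Adnp2 and Ankrd27, Vegfc to Nav3, Slc35a3 and Itga1, and Vegfa, with the lowest top value of the 9 members, to Usp40 (r = 0.941) and Jmjd6.

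Among the members themselves, the strongest likeness was negative, between Vegfb and Pgf (r = -0.91 over the 8 libraries). The receptors Flt1 and Kdr had r = 0.74, Kdr and Vegfc 0.81, and Nrp2 with Flt4 and with Pgf 0.77 and 0.76. Vegfa had r of 0.37 with Pgf and -0.36 with Kdr.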

How the data were processed

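Poly(A) RNA of ventricular tissue was sequenced on an Illumina NovaSeq with random-hexamer priming (labels' protocols). Software listed in the submitters' processing notes, without roles, is limma, cutadapt and RSEM 1.3.1, and the build is GRCm38. Which strand setting was used is not given in the sources used here. A table deposited by the authors holds a normalised signal for 13677 genes in 8 libraries. Each deposited signal equals a read number plus 0.5, divided by an effective library size, on the scale of CPM, which returned whole reads for 100% of values within 0.001. Totals were 15028176 to 21202385 reads, and members had 74 to 8754 reads per library.

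Genes reaching a signal of 1 in 2 or more libraries entered a limma fit (version 3.58.1, R 4.3.3) of log2(signal + 1), with 3 group means over all 8 libraries, 5 residual degrees of freedom and a variance trend. This understates the change of low genes. Benjamini-Hochberg adjustment ran over 13544 genes, threshold 0.05. Intervals are 95%, and SD is over libraries.

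Alternatives were other pseudocounts, filters and scalings, edgeR 4.0.16, DESeq2 1.42.0 and voom on the recovered reads, fits of only the compared groups, a replicate block, an endothelial covariate and leaving out each library. List counts without each library and exon-union lengths were added after seeing the data. Replicates of a group were not merged, since their reads differed beyond counting noise (13.8 to 256.6 chi-square units per gene). Lengths and coordinates come from GENCODE M21 (GRCm38), promoters from RefSeq (GRCm38.p6). Besides the 9 members, the text names up to 3 genes per list and comparison with the largest change past the threshold, or that with the smallest p, and the 3 most similar genes per member, except a gene that is not reported here; other called list genes were named after their values were seen. The members and lists were chosen with earlier results of these data known. The scripts were tested on simulated data.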

Additional observations from a re-analysis of the deposited data

How the results depend on the processing

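Over 20 alternative settings, the 27 differences of the 9 members gave 540 values. Of these, 485 kept direction and side of the threshold, 5 lost a call and 13 gained a call in the same direction. The other 37 changed direction, whatever their side of the threshold, and none of the 37 belonged to the 3 calls. The number of members called in KO versus C, 1 as reported, was 4 with library totals, 2 with DESeq2, 2 with only the compared groups, 4 with the endothelial covariate and 1 to 2 when a library was left out. In DKO versus C it was 0 throughout leaving-out (0 to 0), and in DKO versus KO, 2 as reported, it was 4 with library totals and 0 to 3 when a library was left out. Over all genes, 1883 calls in KO versus C became 4806 with library totals, 3606 with only the compared groups and 449 to 2966 on leaving out a library. The 21 calls in DKO versus C became 13 with a pseudocount of 5, 69 with DESeq2, 7 with voom and 4 to 90 on leaving out a library. The 1599 calls in DKO versus KO became 6205 with library totals, 730 with only the compared groups and 334 to 1991 on leaving out a library. The count test of edgeR on the recovered reads called 2036, 25 and 1678 genes in the 3 comparisons. Fewer libraries and another scaling are the alternatives' own construction; otherwise the cause was not tested.

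Changes of direction were all among differences uncalled in the reported setting, although Flt4 in DKO versus KO was called with library totals. With library totals they were Vegfc 0.40, Flt1 0.44 and Nrp1 0.17 in KO versus C, Flt1 -0.073 and Flt4 -0.0042 in DKO versus C, and Vegfb -0.16, Vegfc -0.32, Flt1 -0.52, Kdr -0.21 and Flt4 -0.63 in DKO versus KO. With the endothelial covariate they were Vegfc -0.066, Pgf -0.028, Flt1 -0.18 and Flt4 -0.083 in DKO versus C, and Flt1 -0.026 and Flt4 -0.14 in DKO versus KO. Flt4 in DKO versus KO was also -0.016 with median of ratios and -0.031 with voom. Leaving out a library gave ranges across 0 for Vegfc (-0.48 to 0.32) and Flt1 (-0.16 to 0.030) in KO versus C; for Vegfb (-0.32 to 0.076), Vegfc (-0.024 to 0.44), Pgf (-0.066 to 0.63), Flt1 (-0.14 to 0.29), Kdr (-0.26 to 0.12) and Flt4 (-0.16 to 0.32) in DKO versus C; and for Vegfc (-0.13 to 0.67), Flt1 (-0.048 to 0.38), Flt4 (-0.27 to 0.21) and Nrp2 (-0.34 to 0.032) in DKO versus KO. The log2 ratio of Flt1 to Kdr ranged from -0.62 to 0.000911 in DKO versus KO, Vegfa to Kdr from -0.66 to 0.11 in DKO versus C, and Vegfc to Flt4 from -0.67 to 0.30, -0.024 to 0.16 and -0.22 to 0.75 in KO versus C, DKO versus C and DKO versus KO.

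The labels do not say what libraries of the same replicate number share. Same-numbered libraries correlated in their deviations at 0.22 and 0.14 between C and KO, 0.19, -0.27 and 0.14 between C and DKO, and -0.012 and 0.10 between KO and DKO. The 2 KO libraries deviate from their mean by equal and opposite amounts, so the correlations with KO cannot show whether same-numbered libraries were paired. With the replicate block the members called were 1, 0 and 2 as without it, calls over all genes were 1794, 21 and 1269, and Flt4 in DKO versus KO changed direction (-0.11), as did Bnip3 in KO versus C (-0.063, and -0.063 to 0.086 on leaving out a library). The lowest members rested on 74 to 236 reads per library (Pgf outside KO, and Vegfc).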
